A study of Rattus norvegicus with 24 samples.

Results

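The interferon-induced GTPases described here are the guanylate-binding proteins Gbp2 and Gbp4 and the immunity-related GTPases Igtp, Irgm and Ifgga2l1. They were found as the probe sets that the array annotation ties to exactly one of these 5 symbols, which gave 5 of 14217 named genes and 6 of 31042 probe sets, 2 of them for Igtp. A further probe set carries the names Igtpl1, Irgm2 and Igtp together and is given apart. The cells were INS-1E, a rat insulinoma line used as a stand-in for insulin-secreting beta cells,, and total RNA was read on 24 Affymetrix arrays. The 8 groups of 3 arrays were cytokines with BRD0476, cytokines with the vehicle DMSO, BRD0476 alone and DMSO alone, each at 12 h and at 6 h. The cytokine mixture held IFN-γ at 50 ng/ml, TNF-α at 25 ng/ml and IL-1β at 10 ng/ml, and BRD0476 was given at 10 µM. BRD0476 is a small molecule known for suppressing cytokine-induced death of beta cells. INS-1E is tumour-derived and stands for a single islet cell type. The labels do not say whether the 3 arrays of a group came from separate cultures, so the spread behind each p-value is that of arrays and may be technical.

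IFN-γ binds its receptor, the kinases JAK1 and JAK2 carry the signal on, and target promoters are switched on through gamma-activated sites (GAS). IRF1, itself induced by IFN-γ, binds interferon-stimulated response elements (ISRE). Guanylate-binding proteins are large dynamin-related GTPases that assemble on pathogens and on the vacuoles that hold them, and immunity-related GTPases are smaller proteins that work with them at vacuole and organelle membranes. In mouse, Irgm1 and Igtp (also called Irgm3) are regulatory members of the second family that sit on host membranes and keep the effector members from acting there. Pancreatic beta cells respond to IFN-γ strongly, and inflamed islets carry an interferon gene signature.

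The promoters of the 5 genes are shown because they differ in how many GAS matches they hold. The stretches below come from RefSeq (GRCr8), written 5′ to 3′ in the direction of the gene, with matches to the ISRE core or to GAS in capitals. Gbp2 is at chr2:234005671-234005730 on the + strand, Gbp4 at chr2:233978451-233978510 on the + strand, Igtp at chr10:42874919-42874978 on the + strand, Irgm at chr10:33742578-33742637 on the - strand and Ifgga2l1 at chr18:56031746-56031805 on the + strand.
Gbp2: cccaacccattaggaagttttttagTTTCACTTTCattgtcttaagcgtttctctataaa
Gbp4: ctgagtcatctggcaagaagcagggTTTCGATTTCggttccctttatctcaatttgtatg
Igtp: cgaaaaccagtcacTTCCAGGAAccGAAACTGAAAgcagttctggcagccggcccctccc
Irgm: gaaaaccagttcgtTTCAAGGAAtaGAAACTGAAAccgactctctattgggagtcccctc
Ifgga2l1: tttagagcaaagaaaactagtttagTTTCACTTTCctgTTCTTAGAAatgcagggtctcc

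Both strands were searched over 250 bases before to 50 after the annotated start for the ISRE core, read as GAAA, any 2 bases and GAAA, and for GAS, TTCNNNGAA, which reads the same on both strands. All 5 promoters held 1 ISRE core match, against 3.92% of 33469 RefSeq promoters of the same length. A GAS match was found once in Igtp, once in Irgm and 3 times in Ifgga2l1, and Gbp2 and Gbp4 had 0 in this window, against 8.87% of all promoters. In Igtp the GAS match ran from base -114 to -106 and the ISRE core from -103 to -94, counted from the start. In Irgm the same order stood nearer the start, GAS from -45 to -37 and the ISRE core from -34 to -25. In both the GAS match ended 2 bases before the ISRE core, as it did in Irgm2, a neighbour of Igtp on chromosome 10. That arrangement was looked up after it had been seen in these sequences, and it occurs in 7 promoters (0.0209%), those of Igtp, Irgm, Irgm2, Ifgga2l2, Parp14, Stra8 and LOC134480693. Ifgga2l1 held its ISRE core from -136 to -127 on the other strand, with GAS matches 29 bases before it and 3 and 120 bases after it, of which the nearest is in the stretch shown. No GAS match overlapped an ISRE core match in these genes. The matches are descriptions of letters and not of binding, which was not measured.

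**Figure D1:**
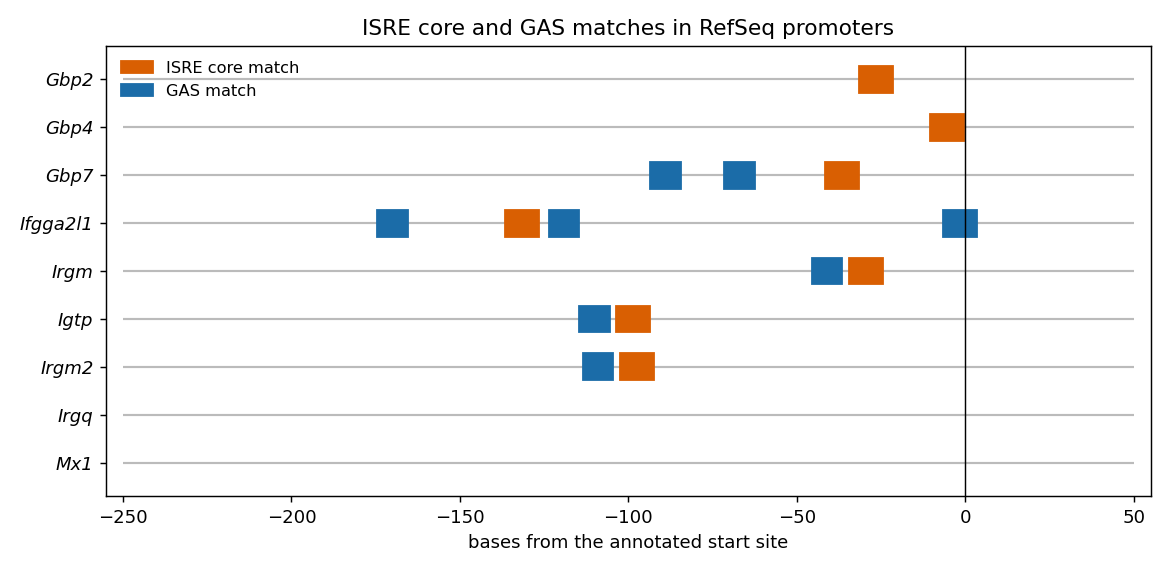
Positions of ISRE core matches (orange) and GAS matches (blue) in RefSeq promoters, in bases from the annotated start site (x axis), for the 5 described GTPase genes and 4 related ones. Gbp2 and Gbp4 hold the ISRE core alone, and Igtp, Irgm and Irgm2 hold GAS directly before it.

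The genes themselves lie at chr2:234005727-234021812 (Gbp2), chr2:233978163-233992124 (Gbp4), chr10:42875047-42882866 (Igtp), chr10:33734640-33742720 (Irgm) and chr18:56031907-56040627 (Ifgga2l1), all in GRCr8. Gbp4 and Gbp2 are near each other on chromosome 2, whereas Igtp and Irgm share chromosome 10 but lie apart. The start sites used for the promoters of Gbp4 and Irgm fall 323 and 142 bases inside the annotated gene. The Gbp4 window thus lies wholly within the annotated gene and the Irgm window in part. The stretches shown above for both genes lie inside as well. The count of 0 GAS matches for Gbp4 therefore leaves out the bases before its annotated gene.

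Values are log2 of the deposited intensity, and a change is a difference of group means with its standard error. A change was called when the p-value of limma, adjusted with Benjamini and Hochberg over all 31042 probe sets, was under 0.05. The array medians ran from 5.49 to 5.57 and arrays of a group correlated with r of 0.9918 to 0.9982. The lower quartile of all values was 3.84. No detection calls come with the data, so a level near or under that quartile may be background, and a fold change against such a level is not a measured ratio of transcripts. Levels are compared within a probe set and not between probe sets. INS-1E cells carried beta-cell messages, with a summed linear intensity of 9 measured beta-cell markers between 79700 and 97700 on every array, and 10 measured leukocyte markers summed to only 160 to 194, with group medians of 3.77 to 4.05 near the quartile. Of the leukocyte markers, Lyz2 rose with cytokines in DMSO at 6 h (0.53 ± 0.15) and at 12 h none of the 10 was called. The 7 measured endothelial markers summed to 202 to 345, with 1 rise and 2 falls at 6 h and 1 rise and 1 fall at 12 h, and the 8 fibroblast markers to 402 to 947, with 1 fall (Pdgfra) at each time. Under cytokines BRD0476 raised Kdr among the endothelial markers by 1.47 ± 0.18 at 12 h and 1.72 ± 0.18 at 6 h, Egfl7 by 0.35 ± 0.09 at 6 h, and the fibroblast marker Pdgfra by 0.83 ± 0.11 and 1.09 ± 0.11. Of the leukocyte markers it raised Csf1r at 6 h (0.37 ± 0.14), and no marker of these 3 lists fell. The beta-cell markers moved with the treatments: 0 rose and 4 fell with cytokines in DMSO at 12 h and 0 rose and 7 fell at 6 h, and under cytokines BRD0476 raised 4 and lowered 0 at 12 h and raised 6 and lowered 1 at 6 h. Over all genes 28.5% and 26.6% fell with cytokines at 12 and 6 h, and 14.2% and 23.5% rose with BRD0476. Nkx6-1, a beta-cell transcription factor, changed by -1.76 ± 0.12 and -1.52 ± 0.12 with cytokines in DMSO at 12 and 6 h. The beta-cell sums ran from 93200 to 95900 with cytokines and BRD0476 at 12 h, against 86100 to 87700 with cytokines and DMSO, and from 91500 to 92600 against 79700 to 80200 at 6 h. The part of these marker changes in the results below was not tested. Bulk RNA cannot separate a change in each cell from a change in the share of cells that respond.

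One array stood apart before any comparison. Replicate 1 of BRD0476 alone at 6 h read 5.57 for Gbp2, where the other replicates read 3.03 and 3.49, and it was also the highest of its group for Ifgga2l1 (4.41), for both Igtp probe sets (6.52 and 5.11) and for Mx2 (5.40), but not for Irgm or Gbp4. Results that rest on that array are also given without it.

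Without cytokines the members were low. Ifgga2l1, Gbp2 and Gbp4 averaged 3.17 to 4.03 over the 4 cytokine-free groups, around the lower quartile of the arrays, and their presence in resting INS-1E cells is not established by these values. Irgm (6.23 to 6.44) and the lead Igtp probe set (5.97 to 6.21) stood above the quartile in all 4 groups. The second Igtp probe set lay between 3.99 and 4.60.

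Gbp2, a guanylate-binding protein whose C-terminal CAAX box is prenylated, fell into 3 clear levels. At 12 h it read 8.25, 8.23 and 7.93 with cytokines and BRD0476, against 12.04, 12.20 and 12.11 with cytokines and DMSO. Cytokine-free arrays at 12 h read 3, 3.41 and 3.10 with BRD0476 alone, against 3.40, 4.02 and 3.47 with DMSO alone. At 6 h the values were 7.39, 7.26 and 7.24 with cytokines and BRD0476, against 11.96, 11.99 and 11.96 with cytokines and DMSO. At both times the 3 groupings (cytokines with DMSO, cytokines with BRD0476, no cytokines) did not overlap. BRD0476 alone at 6 h read 5.57, 3.03 and 3.49, against 3.70, 3.52 and 3.04 with DMSO alone. From high to low, the group means ran 12.12 (cytokines with DMSO, 12 h), 11.97 (the same at 6 h), 8.14 and 7.30 (cytokines with BRD0476 at 12 and 6 h), and the 4 cytokine-free means from 4.03 to 3.17 overlapped their neighbours in that order.

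Gbp4, the other guanylate-binding protein described, was brought closest to its cytokine-free level by the compound. At 12 h it read 5.32, 5.45 and 5.52 with cytokines and BRD0476, against 10.14, 10.15 and 10.27 with cytokines and DMSO. At 6 h it read 4.91, 4.77 and 4.37 with cytokines and BRD0476, against 10.27, 10.37 and 10.09 with cytokines and DMSO. All 12 cytokine-free arrays read between 2.94 and 3.57, under every array with cytokines. The cytokine groups in DMSO at 6 and 12 h overlapped (means 10.24 and 10.19), as did the 4 cytokine-free groups, and the steps between were clear of overlap.

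Igtp, the counterpart of mouse Irgm3, was measured by 2 probe sets. The lead one read 10.17, 10.12 and 10.09 with cytokines and BRD0476 at 12 h, against 12.47, 12.40 and 12.42 with cytokines and DMSO. At 6 h it read 8.69, 8.81 and 8.63 with cytokines and BRD0476, against 11.72, 11.63 and 11.64 with cytokines and DMSO. The 4 cytokine groups were separate from each other and above the cytokine-free arrays, which read 5.82 to 6.52. The second probe set had the same order of cytokine groups, with means of 10.35, 9.02, 6.92 and 6.02. Its arrays with cytokines and BRD0476 read 7.24, 6.81 and 6.72 at 12 h and 5.98, 6.08 and 6.01 at 6 h. Its arrays with cytokines and DMSO read 10.46, 10.47 and 10.13 at 12 h and 9.19, 8.84 and 9.03 at 6 h. The probe set named for Igtpl1, Irgm2 and Igtp together was also lower with the compound, with means of 4.51 against 8.43 at 12 h and 3.53 against 6.56 at 6 h (cytokines with BRD0476 against cytokines with DMSO). It differed from both Igtp probe sets at 6 h with BRD0476, where cytokines did not raise it by the test (0.11 ± 0.24, adjusted p 0.851, limma) and the arrays overlapped. Signal from near-identical copies of these genes cannot be told apart from the values.

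Irgm, the rat gene that corresponds to mouse Irgm1, had a signal above the lower quartile on every array. At 12 h it read 9.84, 10.05 and 9.98 with cytokines and BRD0476, against 12.33, 12.21 and 12.02 with cytokines and DMSO. At 6 h it read 8.18, 8.22 and 8.09 with cytokines and BRD0476, against 10.22, 9.93 and 9.84 with cytokines and DMSO. The arrays with cytokines and BRD0476 at 12 h thus overlapped those with cytokines and DMSO at 6 h (means 9.96 and 10.0), which no other member did. The 12 cytokine-free arrays read 6.10 to 6.52.

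Ifgga2l1, named in the annotation as an interferon-γ-inducible GTPase gene of the Ifgga family, covered the widest range of the members. At 12 h it read 9.47, 9.6 and 9.53 with cytokines and BRD0476, against 12.19, 12.44 and 12.52 with cytokines and DMSO. At 6 h it read 6.68, 6.49 and 6.36 with cytokines and BRD0476, against 11.34, 11.47 and 11.51 with cytokines and DMSO. Its group means were separate from 12.38 down to 6.51, and the cytokine-free groups (3.56 to 3.17) overlapped. Apart from the 4.41 of the array noted above, cytokine-free arrays read 3.05 to 3.54.

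**Figure D2:**
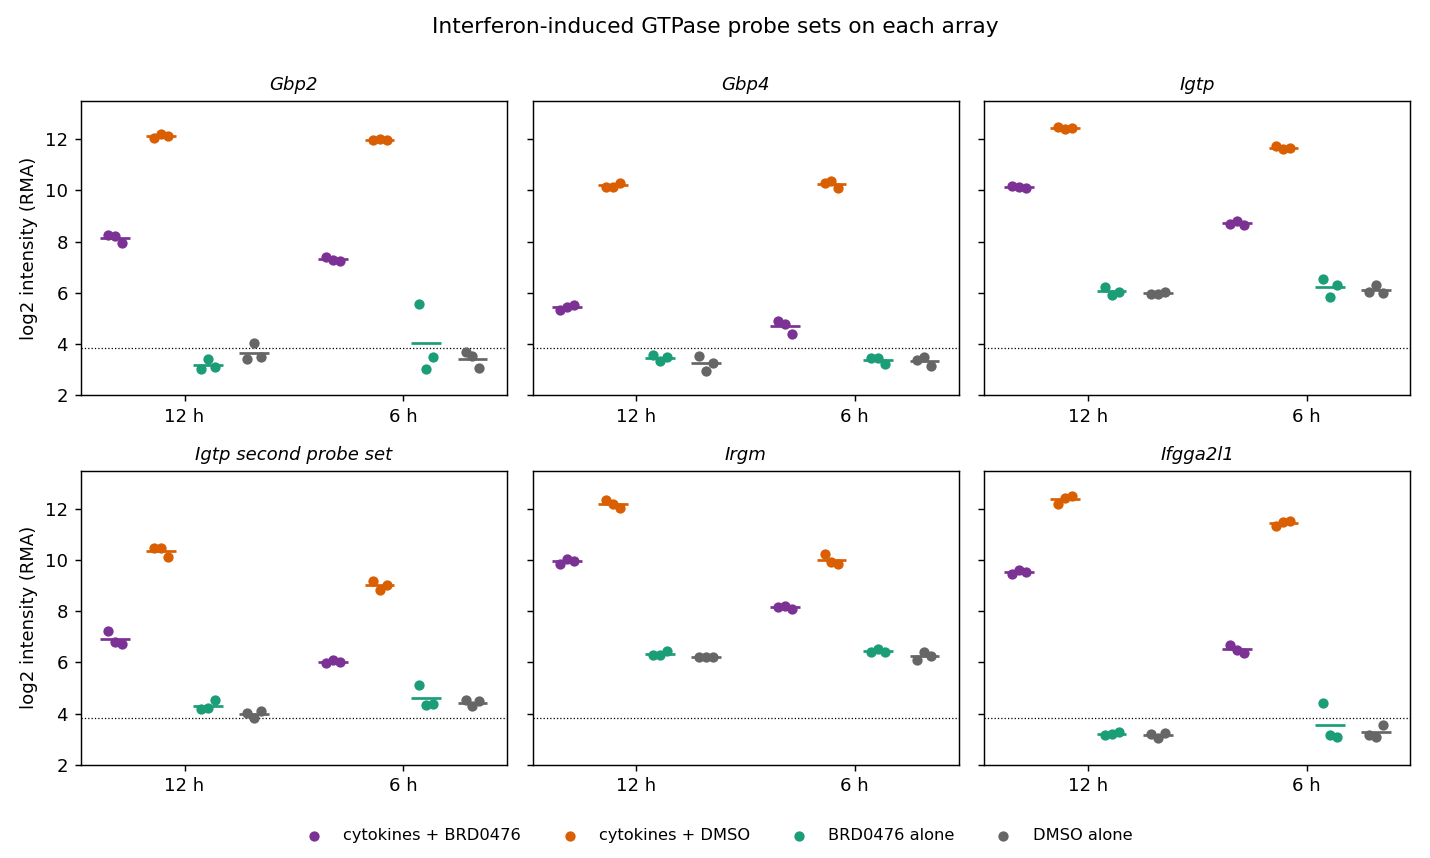
Log2 intensity (y axis) of the 6 GTPase probe sets on each of the 24 arrays at 12 h and 6 h, in the order cytokines with BRD0476, cytokines with DMSO, BRD0476 alone, DMSO alone. Points are arrays, bars are means of 3, and the dotted line is the lower quartile of all values, 3.84. The purple points lie between the orange points and the cytokine-free ones in each panel, and 1 array of BRD0476 alone at 6 h is high for Gbp2 and Ifgga2l1.

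Cytokines in DMSO raised all 6 probe sets at both times, where 12.5% of all probe sets rose at 12 h and 18.2% at 6 h. The changes at 12 h were 9.22 ± 0.22 for Ifgga2l1, 8.48 ± 0.38 for Gbp2, 6.94 ± 0.14 for Gbp4, 6.46 ± 0.12 for Igtp, 6.36 ± 0.17 for its second probe set and 5.96 ± 0.10 for Irgm. The rise of Ifgga2l1 ranked 3 by size of change among the 31042 probe sets at 12 h, and that of Gbp2 ranked 8. The largest adjusted p of the 6 at 12 h was 5.15e-14 (limma, n = 3 each). At 6 h the changes were 8.17 ± 0.22 for Ifgga2l1, 8.54 ± 0.38 for Gbp2, 6.92 ± 0.14 for Gbp4, 5.56 ± 0.12 for Igtp, 4.59 ± 0.17 for its second probe set and 3.74 ± 0.10 for Irgm. In linear terms Irgm, which starts above the lower quartile of all values, rose 62.2-fold at 12 h and 13.4-fold at 6 h. The median change of the 6 was 6.70 at 12 h and 6.24 at 6 h, against -0.024 and -0.006 over all probe sets.

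In the presence of BRD0476 cytokines still raised all 6 probe sets, where 6.4% of all rose at 12 h and 6.72% at 6 h. At 12 h the changes ran from 6.31 ± 0.22 for Ifgga2l1 and 4.97 ± 0.38 for Gbp2 through 4.08 ± 0.12 for Igtp, 3.62 ± 0.10 for Irgm and 2.62 ± 0.17 for the second Igtp probe set to 1.97 ± 0.14 for Gbp4. At 6 h they ran from 3.27 ± 0.38 for Gbp2 to 1.31 ± 0.14 for Gbp4, with adjusted p of at most 2.75e-06. Without the BRD0476 array noted above, the 6 h changes were 4.04 for Gbp2, 3.38 for Ifgga2l1, 2.66 for Igtp, 1.69 for Irgm, 1.67 for the second Igtp probe set and 1.35 for Gbp4, all still called.

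BRD0476 lowered all 6 probe sets under cytokines at both times. Of all probe sets, 7.97% fell at 12 h and 14.6% at 6 h. Gbp4 fell furthest, with changes of -4.75 ± 0.14 at 12 h and -5.56 ± 0.14 at 6 h, which ranked 7 and 3 by size among all probe sets. Gbp2 changed by -3.98 ± 0.38 and -4.67 ± 0.38 at 12 and 6 h, and Ifgga2l1 by -2.86 ± 0.22 and -4.93 ± 0.22. Igtp changed by -2.30 ± 0.12 and -2.95 ± 0.12, its second probe set by -3.43 ± 0.17 and -3 ± 0.17. Irgm changed least, by -2.23 ± 0.10 and -1.83 ± 0.10, that is to a level 4.68-fold lower at 12 h and 3.57-fold lower at 6 h. In each of the 12 cases all 3 arrays with cytokines and BRD0476 lay under all 3 with cytokines and DMSO. How many of all probe sets separate in this way is not given here, so this count describes the members only. The largest adjusted p of these was 4.85e-08 (Gbp2 at 12 h, limma).

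The interaction, the cytokine change with BRD0476 minus that with DMSO, was negative and called for all 6 probe sets, where 4.79% of all were called downward at 12 h and 10% at 6 h. It ranged from -4.96 ± 0.20 for Gbp4 to -2.34 ± 0.14 for Irgm at 12 h and from -5.61 ± 0.20 to -2.02 ± 0.14 for the same genes at 6 h. For Gbp2 it was -3.52 ± 0.53 at 12 h and -5.28 ± 0.53 at 6 h, and the 6 h value was -4.51 without the array that stood apart. Without it the 6 h interaction was -4.80 for Ifgga2l1, -2.90 for Igtp and -2.91 for its second probe set, in place of -5.22, -3.05 and -3.17, all called, and it was -5.57 for Gbp4 and -2.05 for Irgm.

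**Figure D3:**
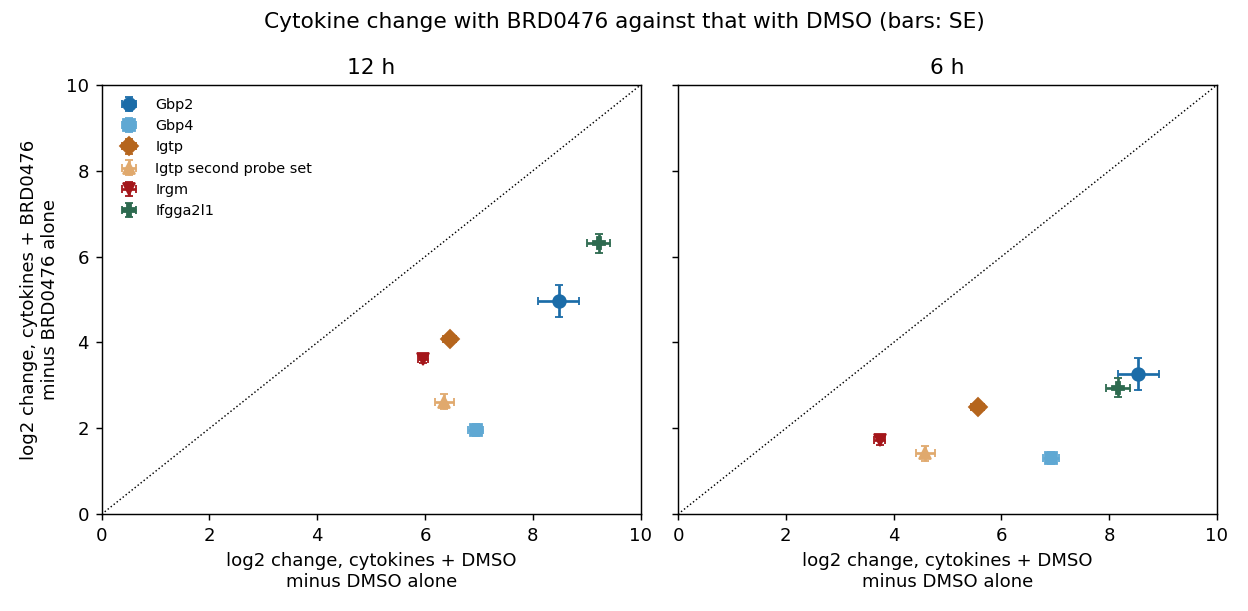
Cytokine change with BRD0476 (y axis) against the cytokine change with DMSO (x axis), both as log2 differences with standard errors, at 12 h and 6 h for the 6 GTPase probe sets. Every point lies under the dotted line of equal change, Gbp4 furthest from it, and the points stand higher at 12 h than at 6 h.

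Measured on the linear scale, the part of the cytokine rise that remained with BRD0476 was lowest for Gbp4, and at 12 h those of Irgm and Igtp did not differ beyond their errors. At 12 h Irgm kept 19.9% ± 1.5 (SE) of the rise in DMSO and Igtp 19.3% ± 0.44, Ifgga2l1 kept 13.6% ± 0.98, Gbp2 6.19% ± 0.48 and Gbp4 2.78% ± 0.17. At 6 h the shares were 21.0% ± 2.0 for Irgm, 10.8% ± 0.62 for Igtp, 3.39% ± 0.34 for Gbp2, 2.83% ± 0.28 for Ifgga2l1 and 1.30% ± 0.25 for Gbp4. The share of Irgm at 12 and 6 h differed by less than its error, whereas the shares of Ifgga2l1, Igtp, Gbp2 and Gbp4 were higher at 12 h by more than their errors. The second Igtp probe set kept 7.93% ± 1.3 and 7.99% ± 1.1, under the lead probe set at both times, so the share depends on which Igtp probe set is read. Without the array that stood apart the 6 h shares were 20.8% for Irgm, 11.1% for Igtp, 8.94% for its second probe set, 3.7% for Gbp2, 2.98% for Ifgga2l1 and 1.32% for Gbp4. The order depends on the scale: of the log2 rise, Ifgga2l1 kept 68.5% at 12 h, Igtp 63.2%, Irgm 60.8%, Gbp2 58.6%, the second Igtp probe set 41.2% and Gbp4 28.4%. At 6 h Irgm kept 46% of the log2 rise, Igtp 45%, Gbp2 38.3%, Ifgga2l1 36.1%, the second Igtp probe set 31% and Gbp4 19%. These 6 h shares of the log2 rise include the array that stood apart. Without it the log2 rise with BRD0476 was 4.04 in place of 3.27 for Gbp2 and 1.69 in place of 1.72 for Irgm. The rises in DMSO did not change, so the order of Irgm, Igtp and Gbp2 at 6 h rests on that array. Gbp4 kept the lowest share on both scales and at both times. Shares describe the arrays and carry no test.

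**Figure D4:**
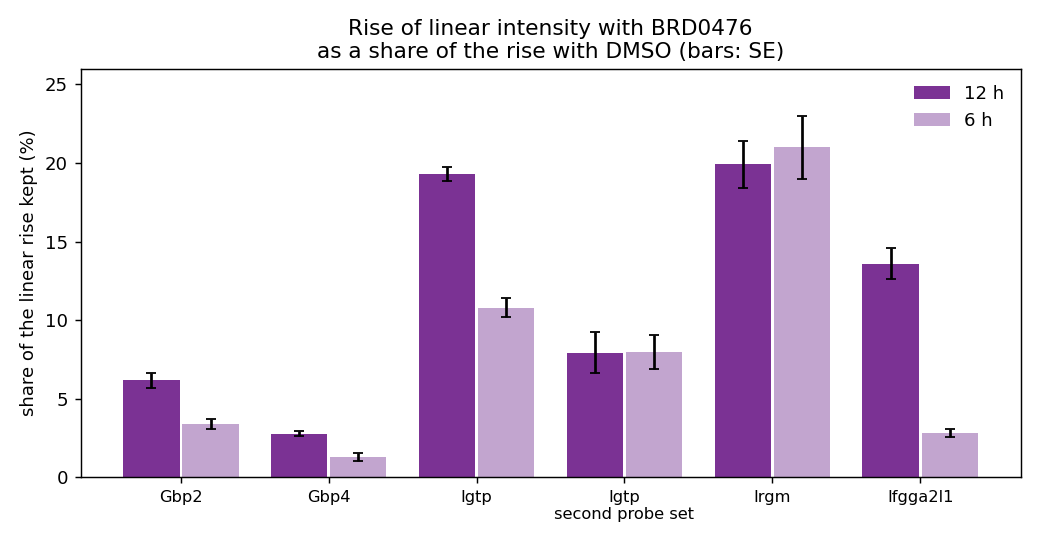
Share of the linear cytokine rise kept with BRD0476 (y axis, %), with its standard error, for the 6 GTPase probe sets at 12 h (dark) and 6 h (light). Gbp4 is the lowest at both times, and the bars of Ifgga2l1 are 13.6% and 2.83%.

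Whether one gene was lowered further than another was tested within arrays. For each pair, the difference between the lead probe sets on the 12 cytokine arrays was compared between BRD0476 and DMSO with an exact two-sided permutation test within time points (400 permutations, smallest possible p 0.005). Of 10 pairs 9 differed at an adjusted p under 0.05. Averaged over both times the changes were -5.16 for Gbp4, -4.32 for Gbp2, -3.89 for Ifgga2l1, -2.63 for Igtp and -2.03 for Irgm. Gbp4 was lowered further than each of the other 4 genes, with Gbp2 minus Gbp4 at 0.83 and Gbp4 minus Ifgga2l1, Igtp and Irgm at -1.26, -2.53 and -3.13 (adjusted p 0.00625 for each, exact permutation test). Gbp2 minus Ifgga2l1 was -0.43 with an adjusted p of 0.1 in that exact test, made of -1.12 at 12 h and 0.26 at 6 h. Igtp minus Irgm was -0.60 (adjusted p 0.0278, exact permutation test), made of -0.08 at 12 h and -1.12 at 6 h. This call was lost in 2 of 12 omissions of a single array, while the difference stayed between -0.64 and -0.56. Each omission also leaves fewer permutations, which makes the p-value coarser. Without replicate 3 of cytokines with DMSO at 12 h the value was -0.56 with an adjusted p of 0.0556 in that test. Without replicate 2 of cytokines with BRD0476 at 12 h it was -0.57 with an adjusted p of 0.05. Irgm minus Ifgga2l1 was 1.86, made of 0.63 at 12 h and 3.1 at 6 h. Igtp minus Ifgga2l1 was 1.27 with the lead probe set, made of 0.55 at 12 h and 1.98 at 6 h. It was 0.97 (adjusted p 0.0667, exact permutation test) with the mean of both Igtp probe sets and 0.68 (0.125) with the second one. The 2 Igtp probe sets themselves differed by 0.59 (exact permutation p 0.03, -2.63 for the lead and -3.21 for the second), which shows how far 2 readings of 1 gene can stand apart on these arrays.

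With BRD0476 alone no member probe set was called, as held for nearly all probe sets. Gbp2, Gbp4 and Ifgga2l1 lay around the lower quartile without cytokines (group means 3.17 to 4.03), so a fall of these might not show. With limma 0 of 6 probe sets were called at 12 h or at 6 h, and 0 had an unadjusted p under 0.05 at either time, where 2.57% and 1.72% of all probe sets were called in either direction. At 12 h the changes ran from -0.46 ± 0.38 (Gbp2) to 0.31 ± 0.17 (second Igtp probe set). At 6 h they ran from 0.05 ± 0.14 (Gbp4) to 0.61 ± 0.38 (Gbp2). Without the array that stood apart Gbp2 changed by -0.16 and Ifgga2l1 by -0.13 at 6 h, in place of 0.61 and 0.29, neither of them called. Igtp then changed by -0.05 and its second probe set by -0.09, in place of 0.10 and 0.17, whereas Gbp4 (0.01) and Irgm (0.21) stayed near their values of 0.05 and 0.19. The 95% intervals with all arrays were -0.10 to 0.32 for Irgm and -0.18 to 0.33 for Igtp at 12 h. At 12 h Irgm read 6.28, 6.29 and 6.43 with BRD0476 alone, against 6.23, 6.22 and 6.23 with DMSO alone (unadjusted p 0.279, limma). The second Igtp probe set read 4.16, 4.21 and 4.54, against 4.04, 3.84 and 4.10 (unadjusted p 0.0855, limma). These arrays did not overlap, and those of the other 4 probe sets did. An exact test of 3 arrays against 3 cannot go below p 0.1, so the separation alone shows no effect of the compound. The share of all probe sets that separate this way is not given here.

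Between 6 and 12 h the members took different courses. With cytokines and DMSO, Irgm was higher at 12 h by 2.19 ± 0.10, the second Igtp probe set by 1.33 ± 0.17, Ifgga2l1 by 0.94 ± 0.22 and Igtp by 0.77 ± 0.12, 4 of 6 called where 16% of all probe sets rose. Gbp2 (0.15 ± 0.38, adjusted p 0.817) and Gbp4 (-0.06 ± 0.14, adjusted p 0.811) were not called, with 95% intervals of -0.63 to 0.93 and -0.35 to 0.23. The Gbp2 arrays at 12 h nonetheless all lay above those at 6 h, by a small margin, whereas the Gbp4 arrays overlapped.

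With cytokines and BRD0476, 5 of 6 probe sets rose by 12 h, where 4.43% of all did. Ifgga2l1 rose by 3.02 ± 0.22, the largest change of the 31042 probe sets in that comparison (adjusted p 8e-09, limma). Irgm rose by 1.80 ± 0.10, Igtp by 1.42 ± 0.12, its second probe set by 0.90 ± 0.17 and Gbp4 by 0.75 ± 0.14. Gbp2 was 0.84 ± 0.38 higher, with all 3 arrays at 12 h above all 3 at 6 h but an adjusted p of 0.16. Without the array that stood apart, which belongs to another group but enters the shared spread, the adjusted p was 0.00192.

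Without cytokines time changed nothing that passed the test. With limma 0 of 6 were called with BRD0476 alone or with DMSO alone, where 1.5% and 0.818% of all probe sets were, and 1 in each had an unadjusted p under 0.05. These were Gbp2 with BRD0476 alone (-0.86 ± 0.38, and -0.09 without the array that stood apart) and the second Igtp probe set with DMSO alone (-0.44 ± 0.17).

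The cytokine change in DMSO was itself larger at 12 h than at 6 h for 4 of 6 probe sets, where 9.65% of all were called upward. The difference was 2.22 ± 0.14 for Irgm, 1.77 ± 0.24 for the second Igtp probe set, 1.04 ± 0.31 for Ifgga2l1 and 0.90 ± 0.17 for Igtp. That of Ifgga2l1 (adjusted p 0.0169, limma) fell to 0.91 with adjusted p 0.0521 when replicate 3 of DMSO alone at 6 h was left out. Gbp2 (-0.06 ± 0.53) and Gbp4 (0.02 ± 0.20) were not called.

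The BRD0476 change under cytokines was less negative at 12 h than at 6 h for Ifgga2l1 (difference 2.08 ± 0.31, adjusted p 4.47e-05), Gbp4 (0.81 ± 0.20, adjusted p 0.00606) and the lead Igtp probe set (0.65 ± 0.17, adjusted p 0.0116), all with limma. These were 3 of 6, where 7.66% of all probe sets were called upward. For Igtp the second probe set gave -0.43 ± 0.24, not called, and the mean of both gave 0.11 with adjusted p 0.729, so no direction can be given for the gene. Irgm went the other way without a call, at -0.39 ± 0.14 (adjusted p 0.0576), and it was called in 8 of 33 alternative settings, with adjusted p from 0.0116 to 0.144. Gbp2 gave 0.69 ± 0.53 with adjusted p 0.45, and 0.0495 without the array that stood apart.

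A test of the pairs on the change from 6 to 12 h, over both cytokine groups and with time labels permuted within compound, was added after the values had been seen. Averaged over both, the changes were 1.99 for Irgm, 1.98 for Ifgga2l1, 1.09 for Igtp, 0.49 for Gbp2 and 0.35 for Gbp4. Of 10 pairs 8 differed (exact permutation test, 400 permutations, adjusted over the pairs). Irgm and Ifgga2l1 each rose more than Gbp2 and Gbp4, with Gbp2 minus these at -1.5 and -1.49 and Gbp4 minus these at -1.65 and -1.64 (adjusted p 0.00714 for each, exact permutation test). The pairs that were not called were Irgm and Ifgga2l1 (0.01, adjusted p 0.965) and Gbp2 and Gbp4 (0.15, adjusted p 0.222), by the same exact test. The value for Irgm minus Ifgga2l1 averages opposite differences, -1.22 with BRD0476 and 1.25 with DMSO, so the courses of these genes were not alike. The differences of Igtp from Gbp2, Gbp4 and Ifgga2l1 were lost when its second probe set was used (exact permutation, adjusted p 0.0571, 0.05 and 0.119).

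A 28-gene list drawn up as other interferon-induced GTPases was covered by 6 measured genes, Gbp7, Irgm2, Irgq, RGD1309362, Mx1 and Mx2. Irgq stands in it as a gene of the IRG family, and cytokines did not raise it in these data. With cytokines in DMSO 5 rose and 1 fell at each time, where 15% and 28.5% of the 14217 genes rose and fell at 12 h and 23.4% and 26.6% at 6 h. The median change was 6.47 at 12 h and 5.42 at 6 h, against -0.04 and 0 over all genes. The dynamin-like antiviral proteins also rose, Mx2 by 8.31 ± 0.28 and 8.41 ± 0.28 at 12 and 6 h and Mx1 by 7.38 ± 0.10 and 8.17 ± 0.10. RGD1309362, whose synonym in RefSeq is Ifgga1, rose by 7.73 ± 0.24 and 5.86 ± 0.24. Irgm2 rose by 5.55 ± 0.10 and 4.98 ± 0.10. Irgq, a divergent member of the IRG family, was the one that fell, by 0.30 ± 0.10 at 12 h and by 0.83 ± 0.10 at 6 h.

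Under cytokines BRD0476 lowered 5 of these 6 at each time, where 9.75% of genes fell and 14.2% rose at 12 h and 18.3% fell and 23.5% rose at 6 h. RGD1309362 changed by -4.95 ± 0.24 at 12 h and -5.06 ± 0.24 at 6 h, a size near that of Gbp4. At 12 h it read 6.41, 6.50 and 6.22 with cytokines and BRD0476, against 11.10, 11.29 and 11.59 with cytokines and DMSO. Mx1 changed by -2.55 ± 0.10 and -2.51 ± 0.10, Irgm2 by -1.77 ± 0.10 and -2.37 ± 0.10, and Mx2 by -1.42 ± 0.28 and -2.27 ± 0.28. Gbp7, which neighbours Gbp4 on chromosome 2, changed by -1.07 ± 0.12 and -1.81 ± 0.12 at 12 and 6 h. It read 12.50, 12.43 and 12.45 with cytokines and BRD0476 at 12 h, against 13.37, 13.63 and 13.61 with cytokines and DMSO. Irgq was 0.61 ± 0.10 higher with BRD0476 at 6 h and was not called at 12 h (0.21 ± 0.10, adjusted p 0.201, limma). Irgq and Mx1 had neither motif in their promoter windows, whereas Gbp7 had 1 ISRE core and 2 GAS matches.

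Of 22 measured genes of IFN-γ signalling, 17 rose and 2 fell with cytokines in DMSO at 12 h, and 19 rose and 1 fell at 6 h, against the 15% and 28.5% of all genes that rose and fell at 12 h and 23.4% and 26.6% at 6 h. The median change was 1.76 at 12 h and 1.59 at 6 h. Under cytokines BRD0476 lowered 16 and raised 1 at 12 h and lowered 13 and raised 2 at 6 h, where 9.75% and 18.3% of all genes fell, with median changes of -0.90 and -1.17, against 0.04 and 0 over all genes. Irf1, the transcription factor that binds ISRE-like elements of GTPase promoters, rose by 5.08 ± 0.11 and 4.74 ± 0.11 with cytokines and changed by -2.50 ± 0.11 and -2.68 ± 0.11 with BRD0476 at 12 and 6 h. Irf7, a factor of the type I interferon loop, changed with BRD0476 by -1.63 ± 0.10 and -3 ± 0.10. Batf2, a basic leucine zipper factor that partners Irf1 in mouse macrophages, changed by -3.65 ± 0.18 and -4.13 ± 0.18. Usp18, which curbs interferon receptor signalling, changed by -1.55 ± 0.16 and -2.90 ± 0.16.

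Of 9 measured genes for cell-autonomous defence and inflammasomes, 6 rose and 0 fell with cytokines at each time, and under cytokines BRD0476 lowered 6 and raised 0 at each time. Of all genes 15% and 23.4% rose with cytokines at 12 and 6 h, and 9.75% and 18.3% fell with BRD0476. Casp4, the sensor caspase for cytosolic lipopolysaccharide that guanylate-binding proteins help to engage, rose by 4.54 ± 0.13 and 4.81 ± 0.13 and changed with BRD0476 by -1.73 ± 0.13 and -2.18 ± 0.13 at 12 and 6 h. Rnf213, a giant ubiquitin ligase that coats intracellular pathogens, rose by 5.02 ± 0.14 and 4.34 ± 0.14 and changed with BRD0476 by -1.95 ± 0.14 and -2.28 ± 0.14. Apol3l1, an apolipoprotein L gene, rose by 4.33 ± 0.19 and 3.67 ± 0.19.

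Lists of genes that serve or resemble the GTPases had median changes near 0 with cytokines in DMSO, where 15% of all genes rose and 28.5% fell at 12 h and 23.4% and 26.6% did at 6 h. Of 8 measured prenylation genes, which attach lipids to CAAX proteins such as Gbp2, 0 rose and 4 fell with cytokines at 12 h and 3 rose and 1 fell at 6 h, with medians of -0.07 and 0.12. Pggt1b, a subunit of a CAAX prenyl transferase, rose by 1.06 ± 0.15 at 6 h and was not called at 12 h (0.24 ± 0.15). Of 11 measured autophagy genes, some of which in mouse place IRG and GBP proteins on vacuoles, 2 rose and 3 fell at 12 h and 3 rose and 2 fell at 6 h. Sqstm1, an autophagy receptor, rose by 0.92 ± 0.07 at 6 h, against 0.07 ± 0.07 (not called) at 12 h. Of 10 dynamin and atlastin genes, kin of the guanylate-binding proteins, 2 rose and 1 fell at 12 h and 2 rose and 2 fell at 6 h. The largest of those rises was that of Dnm3 at 6 h, 1.10 ± 0.15. Under cytokines BRD0476 raised 2 and lowered 0 prenylation genes at 12 h and raised 1 and lowered 3 at 6 h. For autophagy genes these counts were 2 and 0 at 12 h and 1 and 4 at 6 h, and for dynamin and atlastin genes 0 and 0 at 12 h and 2 and 2 at 6 h, where 14.2% of all genes rose and 9.75% fell at 12 h and 23.5% and 18.3% did at 6 h.

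Over the 8 group means the members ran closely together, with Pearson r from 0.90 (Gbp4 with Irgm) to 0.998 (Igtp with Ifgga2l1), where 4 of the 8 points share the cytokine treatment. Deviations within groups, over 24 arrays, correlated at -0.239 (Irgm with Ifgga2l1) to 0.732 (Gbp2 with Ifgga2l1) and at -0.015 for Gbp2 with Gbp4. Without the array that stood apart the group means gave 0.90 to 0.998 again, whereas within groups Gbp2 with Ifgga2l1 was at -0.4 and Gbp2 with Gbp4 at -0.287 over 23 arrays. The 3 genes most like each member were sought among 2764 genes whose group means spanned at least 1 log2 unit. For Gbp2 they were Tap1 (r = 0.999 over 8 group means), Tap2 (0.9988) and Csf1 (0.997), the first pair being subunits of the peptide transporter for MHC class I loading. For Gbp4 they were Tmem140, Oasl and Nub1, with r from 0.9965 to 0.9968. For Igtp they were Ifi44l (0.9988), Rnf213 (0.9987) and Parp12 (0.9979). For Irgm they were Eif2ak2 (0.999), the antiviral kinase PKR, Trim5 (0.9965) and Acsl5 (0.9934), and for Ifgga2l1 they were Rig1 (0.9975), Ifi44l (0.9974) and Parp12 (0.9971). Eif2ak2 rose by 3 at 12 h and 1.80 at 6 h with cytokines in DMSO, whereas Tap1 rose by 5.60 and 5.53. Without the array that stood apart, 11 of the 15 genes were again among the 3 most like, and Csf1, Oasl, Acsl5 and Rig1 were not. These likenesses rest on 8 points that share arrays and carry no test.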

How the data were processed

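The deposited table holds linear intensity values that the authors made with RMA, per the submitters' processing notes; the RMA version, chip definition and build are not given in the sources used here. Log2 of these intensities was computed here without further normalization, and 57 control rows of 31099 were left out. Probe sets were named through the platform annotation table: 20826 with 1 gene, 436 with several and 9780 with none. Entrez records renamed 0 genes.

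The 8 groups were modelled in limma 3.58.1 under R 4.3.3 (lmFit and eBayes, a mean for each group, all 24 arrays, 16 residual and 4.63 prior degrees of freedom), over 16 comparisons. Standard errors of the differences had a median of 0.111 over probe sets, and 3 arrays a group limit the precision. An exact test of 3 arrays against 3 cannot go below p 0.1, so calls rest on the model. For gene lists the probe set with the highest mean stood for a gene, over 14217 genes. The steps were tested on simulated data.

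Members and lists were chosen with earlier results of these data known. Genes named are all member probe sets, up to 4 called genes of each list with the largest cytokine change in DMSO at 6 h, and the 3 genes most like each member. The other list genes Gbp7 and Irgq were named after their values were seen, as all 6 measured GTPases are given. Promoters come from RefSeq GRCr8 and were matched by symbol for all 5 members. Probe and protein sequences were not used here.

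Alternatives covered normalization, dim probe sets, array weights, trend and robust fits, the probe set that stands for a gene, the replicate block, only the arrays compared and each array left out. The pair test over time and the second Igtp probe set in the pair tests were added after the data had been seen.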

Additional observations from a re-analysis of the deposited data

Results flagged for a closer look

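In 7 cases a member's response differed between the times in a test of the difference itself (limma, adjusted over all probe sets). The cytokine change in DMSO was larger at 12 h than at 6 h by 2.22 ± 0.14 for Irgm, by 1.77 ± 0.24 for the second Igtp probe set, by 1.04 ± 0.31 for Ifgga2l1 and by 0.90 ± 0.17 for the lead Igtp probe set. The 3 arrays at 12 h were above the 3 at 6 h in each of these under cytokines with DMSO. The share of all probe sets that do so is not given. The BRD0476 change under cytokines was less negative at 12 h than at 6 h by 2.08 ± 0.31 for Ifgga2l1, by 0.81 ± 0.20 for Gbp4 and by 0.65 ± 0.17 for the lead Igtp probe set. Ifgga2l1 is thus in both sets, Irgm in the first and Gbp4 in the second. The 2 Igtp probe sets share the first difference and not the second.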

How the results depend on the processing

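Of 3136 values of member changes under alternative settings, 3121 stayed on the same side of the threshold. Another 2 lost a call, 13 gained one and 0 reversed. The 3121 include 21 that were uncalled in both and had a turned sign. With array weights, 12 h against 6 h in DMSO alone had 1 member probe set called (the second Igtp one, -0.52, adjusted p 0.0394) in place of 0. At probe-set level the number of members called also changed for 12 h against 6 h with cytokines and BRD0476 (6 in place of 5, in 2 settings). It changed for the cytokine change in DMSO between times as well (3 in place of 4, in 1 setting). For the BRD0476 change under cytokines between times 4 were called in place of 3 in 8 settings. The added call was that of Irgm, downward, in most of these 8 and that of Gbp2, upward, in the others. Leaving out each array in turn kept 6 of 6 members called for cytokines, for BRD0476 under cytokines and for the interaction at both times. The fit with only the arrays compared called Gbp2 at 12 h over 6 h with cytokines and BRD0476 (0.84, adjusted p 0.00302). With the replicate block 0 of 96 member changes changed call, Gbp4 under cytokines included. Same-numbered arrays of different groups had a median residual correlation of -0.0113 over 84 pairs, with a range of -0.404 to 0.641. Over 168 pairs of different numbers the median was 0.00743, with a range of -0.463 to 0.417. The medians show no general pairing by number, but a pairing between particular groups was not tested. The labels do not say what the numbers mean. Counts over all probe sets moved by over 1.5 times as follows. Array weights gave 9479 in place of 5710 (cytokines in BRD0476, 12 h), 901 for 535 and 2573 for 797 (BRD0476 alone, 6 and 12 h), 7517 for 3994 (time, cytokines with BRD0476), 1413 for 254 (time, DMSO alone) and 1021 for 466 (time, BRD0476 alone). Only the arrays compared gave 3496 for 5665 (BRD0476 under cytokines, 12 h), 65 for 535, 72 for 254 and 217 for 466. Without single arrays, BRD0476 alone gave 266 to 593 at 6 h and 430 to 925 at 12 h, time gave 246 to 563 (BRD0476 alone), 141 to 324 (DMSO alone) and 2431 to 4505 (cytokines with BRD0476). Gene-level fits called fewer, for example 7345 (1 probe set a gene) and 7255 (their mean) for 12910 with cytokines in DMSO at 6 h. The series holds 14217 named genes and 31042 probe sets, so these counts do not share a base. Signal near the lower quartile limits the folds of Gbp2, Gbp4 and Ifgga2l1. The causes were not tested.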
